A study of Nicotiana tabacum with 6 samples.

Results

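The enzymes described here make the isoprene units of plant terpenoids and join them into prenyl chains, and they were measured in tobacco leaf (Nicotiana tabacum). Leaves of MuGDH64, a stable aphid-resistant mutant line selected after cobalt gamma irradiation of GDH64, were compared with leaves of its parent GDH64, with 3 RNA sequencing libraries of each. MuGDH64 is a single irradiated line, so any other lesion that it carries goes with every comparison, and the series title names a mutation of NtCYC (a cembranoid synthesis gene of glandular trichomes), which was not analysed here. Per the labels, leaf punches of several plants were pooled for a sample, field plants were taken at several dates after transplanting, and the date behind each library is not given. Members were chosen by the text of their description alone: gene models that name a polyprenyl synthetase, a squalene/phytoene synthase, a hydroxymethylglutaryl, mevalonate or isopentenyl enzyme, or an enzyme of the methylerythritol phosphate pathway. This text was found in 109 of 69500 gene models, and the 73 of them with at least 1 FPKM (fragments normalised to transcript length and to mapped fragments) in at least 3 libraries are the members. Of the 36 matched models below that level, 17 were listed at 0 in every library. In 70 of the 73 members all 6 libraries reached 1 FPKM.

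Plants build isopentenyl diphosphate along separate routes, the mevalonate pathway of the cytosol and endoplasmic reticulum and the methylerythritol phosphate (MEP) pathway of the plastid. An isomerase interconverts isopentenyl and dimethylallyl diphosphate, and prenyl transferases then condense these units head to tail into geranyl, farnesyl, geranylgeranyl and longer diphosphates. Squalene synthase leads to sterols and phytoene synthase to carotenoids, while in tobacco trichomes plastid geranylgeranyl diphosphate is the precursor of cembranoid diterpenes.

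Summed FPKM over all gene models ran from 634425 to 719776 in MuGDH64 and from 728572 to 756316 in GDH64, and the read depth is unknown. The median log2 change of the 32340 tested genes was -0.18 on the log2(FPKM + 1) scale, MuGDH64 minus GDH64. Log2 changes are therefore given relative to this median gene, while adjusted p values (limma, Benjamini-Hochberg over all tested genes) belong to the values as deposited. Leaf mesophyll markers (chlorophyll a/b binding proteins and Rubisco small subunits, 71 of 90 models tested) summed to between 14162 and 14838 FPKM in MuGDH64 and between 13923 and 15718 FPKM in GDH64. Their sums overlapped, while 2 of the 71 were higher and 14 lower (2.82% and 19.7%), against 2.2% and 9.74% of all tested genes, and 5 were higher and 7 lower after quantile normalization. Markers of dividing cells (cyclins and kinesins, 85 of 217 models tested, 16 listed at 0 throughout) summed to between 280.53 and 318.49 FPKM in MuGDH64 and between 360.87 and 440.8 FPKM in GDH64, with 0 higher and 11 lower (12.9%). After quantile normalization 0 were higher and 5 lower. Seed storage markers summed to between 36.66 and 37.79 FPKM in MuGDH64 and between 40.97 and 48.94 FPKM in GDH64, with 1 of 7 lower, and 23 of the 44 matched models were at 0 throughout. Vascular markers (0 of 7 called) and pollen allergen domains (1 of 22 higher and 1 lower) overlapped between the lines in their sums. The part of these markers in the results below was not tested. In bulk leaf, fewer cells of a type and less RNA per cell cannot be told apart.

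Across the members the change was uneven, and the calls as deposited fell on a few gene models of 4 enzyme types. HMG-CoA synthases and a squalene synthase passed as well after quantile normalization. The calls as deposited are these. An HMG-CoA reductase, a pair of isopentenyl diphosphate isomerases, a pair of polyprenyl synthetases and a solanesyl diphosphate synthase were higher in MuGDH64, and a pair of abundant polyprenyl synthetases was lower. In total 6 of the 73 members were higher (8.22%) and 2 were lower (2.74%), while 2.2% of all tested genes were higher and 9.74% were lower. Among the 6 is the polyprenyl synthetase Nitab4.5_0004294g0030, which could be tested through its MuGDH64 libraries alone, so every count that holds it is a description. After quantile normalization 13 members were higher and 2 lower, against a background of 4.43% and 5.17%. With each library centred on its median, 16 were higher and 0 lower, against 6.0% and 4.28%. The lines did not overlap in 14 members with MuGDH64 higher (19.2%, against 5.68% of all tested genes) and in 15 with MuGDH64 lower (20.5%, against 31.8%). The median member lay 0.10 above the median gene, and 52 of the 73 (71.2%) lay above it. The members' summed FPKM overlapped between the lines, at 1502, 1480 and 1331 in MuGDH64 and 1399, 1496 and 1348 in GDH64. As a share of all FPKM it was 0.209%, 0.21% and 0.21% in MuGDH64 and 0.186%, 0.198% and 0.185% in GDH64, without overlap. This share also depends on the total FPKM, which was lower in every MuGDH64 library than in any GDH64 library. No member had the same scaffold number as another in its identifier, and the files give no coordinates.

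**Figure D1:**
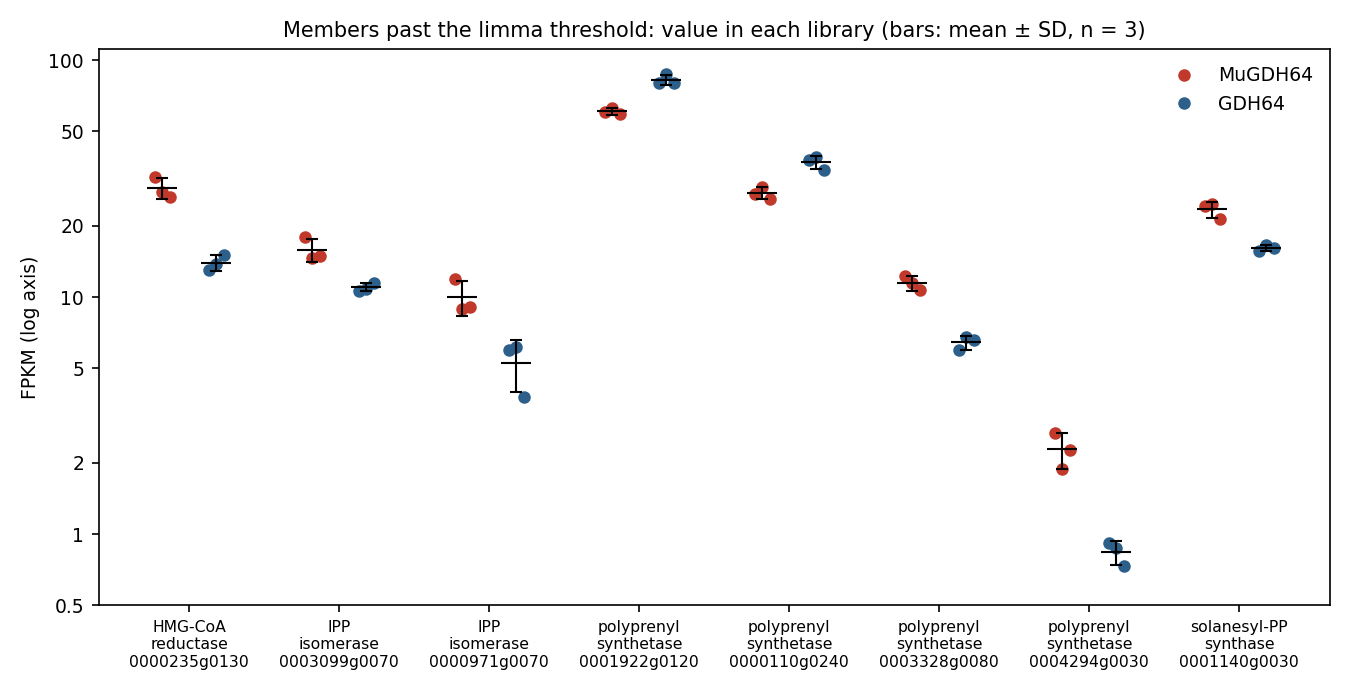
Value in FPKM on a log axis of each member past the threshold, with points for the libraries and bars for the mean ± SD (n = 3 per line). In each of the 8 gene models the MuGDH64 points lie wholly above or wholly below the GDH64 points, above in 6 and below in 2. The models were chosen by the threshold on these same values, so this separation is no further result. For Nitab4.5_0004294g0030, kept by the filter through its MuGDH64 libraries alone, it was a condition of being tested.

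The rule drew in 18 members that were set apart by their descriptions as enzymes of other reactions. None of them passed the threshold in either direction. Over all tested genes 2.2% were higher and 9.74% lower, so few calls would fall in a group of this size at those shares. The lines did not overlap in 6 of the 18 with MuGDH64 lower (33.3%, against 31.8% of all tested genes), and in 0 with MuGDH64 higher (against 5.68%). The 18 are 9 kinases with a Mevalonate/galactokinase domain, 4 HMG-CoA lyases, which act in leucine breakdown, and 5 tRNA isopentenyltransferases. The last are a family that modifies tRNA or makes cytokinins. Most of the kinases carry galactokinase terms and 1 is described as an L-fucokinase, enzymes that phosphorylate sugars. Nitab4.5_0001860g0030 has no such term beyond the shared domain, so its substrate is not known. The relative log2 changes of the 18 ran from -0.21 to 0.12 with a median of -0.02. The other 55 members had a median of 0.15 and a range from -0.26 to 1.16, and all 8 members that passed were among them. The most abundant sugar kinase, Nitab4.5_0005111g0010, had 28.52, 23.32 and 22.38 FPKM in MuGDH64 and 28.55, 30.74 and 25.28 FPKM in GDH64. An HMG-CoA lyase, Nitab4.5_0001450g0050, had 10.09, 9.22 and 9.59 FPKM in MuGDH64 and 10.67, 13.95 and 9.92 FPKM in GDH64. The tRNA isopentenyltransferase Nitab4.5_0000035g0040 had 11.56, 11.21 and 9.76 FPKM in MuGDH64 and 9.8, 13.48 and 10.93 FPKM in GDH64. In each of these 3 genes the lines overlapped (adjusted p between 0.294 and 0.788).

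**Figure D2:**
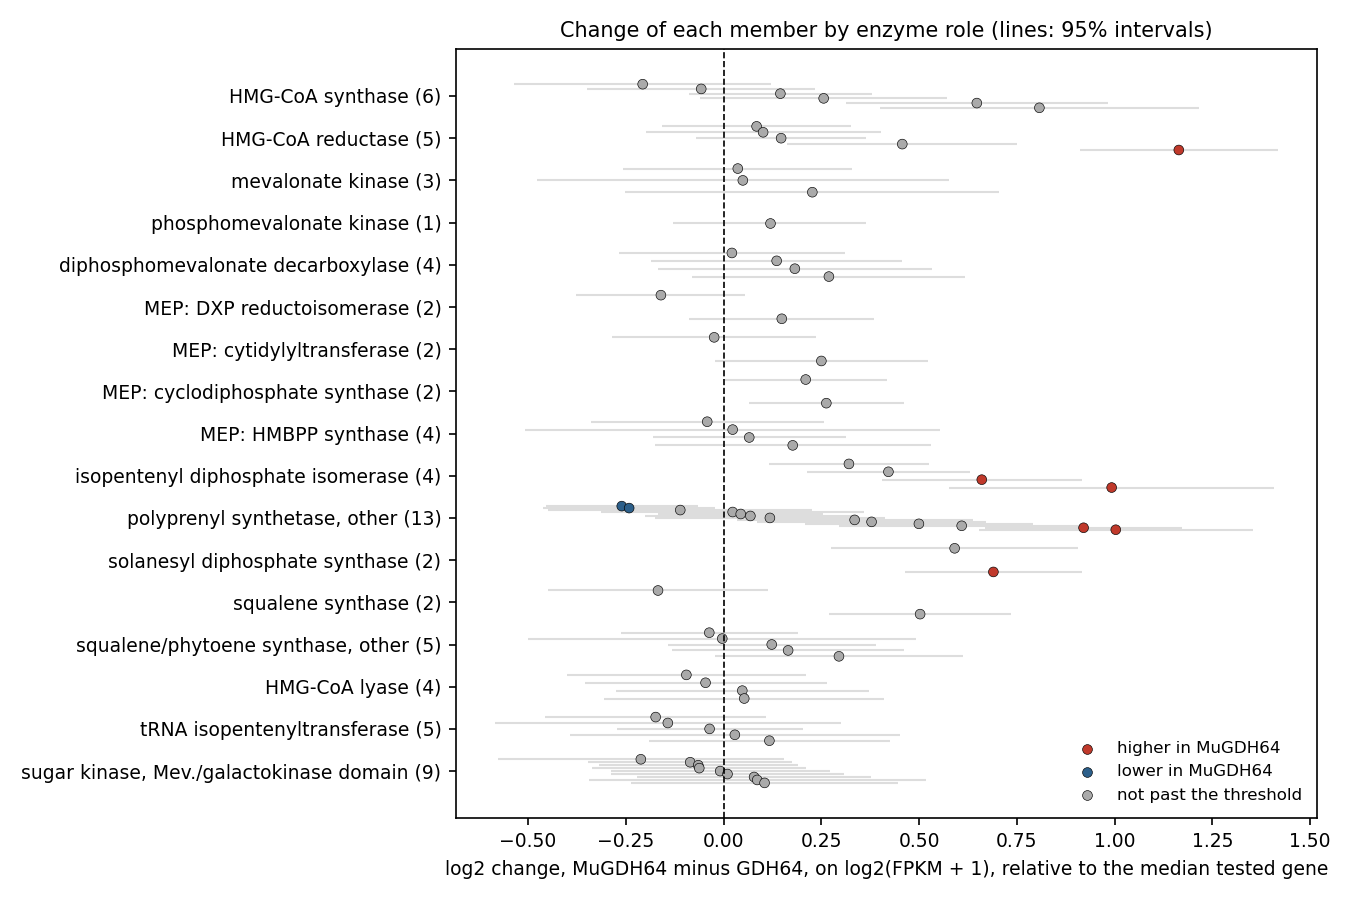
Log2 change of each of the 73 members, MuGDH64 minus GDH64 on log2(FPKM + 1), relative to the median tested gene, by enzyme role with the number of members in brackets. Points are gene models, lines are 95% intervals, and colours mark models past the threshold. The isomerases and solanesyl diphosphate synthases lie right of 0 in full, from 0.32 to 0.99. So do the HMG-CoA reductases (0.08 to 1.16). The mevalonate kinases, phosphomevalonate kinase, diphosphomevalonate decarboxylases and cyclodiphosphate synthases do so nearer 0 (0.02 to 0.27). The other polyprenyl synthetases spread from -0.26 to 1.00, where the upper end is the model kept by the filter through its MuGDH64 libraries alone.

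In the mevalonate pathway 1 of 19 gene models, an HMG-CoA reductase, passed as deposited, and it was higher in MuGDH64. That is 5.26% higher and 0 lower, against 2.2% and 9.74% of all tested genes. HMG-CoA reductase forms mevalonate and is the main control point of this route. The gene model Nitab4.5_0000235g0130 had 32.03, 27.77 and 26.44 FPKM in MuGDH64 and 13.03, 13.78 and 15.12 FPKM in GDH64. Each MuGDH64 library lay far above each GDH64 library, with means of 28.8 ± 2.92 and 13.98 ± 1.06 FPKM (SD, n = 3 libraries per line), a relative log2 change of 1.16 (95% interval 0.91 to 1.42) and an adjusted p of 0.00158. This call held in all 14 alternative settings, with adjusted p between 0.000557 and 0.0108.

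The other 4 expressed HMG-CoA reductases did not pass. The most abundant, Nitab4.5_0004529g0010, had 56.07, 48.24 and 43.88 FPKM in MuGDH64 and 51.3, 52.28 and 53.77 FPKM in GDH64. Nitab4.5_0000855g0140 had 22.75, 21.13 and 21.5 FPKM in MuGDH64 and 23.1, 20.76 and 22.95 FPKM in GDH64. In both the lines overlapped, with adjusted p of 0.576 and 0.855. Of the less abundant models, Nitab4.5_0004448g0010 had 7.11, 7.84 and 6.21 FPKM in MuGDH64 and 5.61, 5.04 and 6.22 FPKM in GDH64 (adjusted p = 0.177). Nitab4.5_0007096g0050 had 4.97, 4.6 and 3.78 FPKM in MuGDH64 and 4.73, 5.07 and 4.37 FPKM in GDH64 (adjusted p = 0.72). A further 4 reductase models were below the filter. The make-up of the reductase transcripts differed as a result. Within each library, a measure that library scaling cannot move, Nitab4.5_0000235g0130 held 26.1%, 25.3% and 25.97% of the summed reductase FPKM in MuGDH64 and 13.3%, 14.2% and 14.8% in GDH64. Nitab4.5_0004529g0010 held 45.6%, 44.02% and 43.1% in MuGDH64 and 52.5%, 53.9% and 52.5% in GDH64. The summed level of the 5 reductases was 122.93, 109.58 and 101.81 FPKM in MuGDH64 and 97.77, 96.93 and 102.43 FPKM in GDH64, so the sums overlapped in the MuGDH64 library with the lowest value.

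HMG-CoA synthase, the step before the reductase, had 6 expressed models, none of which passed as deposited. The most abundant, Nitab4.5_0001714g0230, had 15.22, 15.04 and 13.3 FPKM in MuGDH64 and 14.08, 15.15 and 15.29 FPKM in GDH64 (adjusted p = 0.856). Nitab4.5_0001200g0090 had 10.31, 8.21 and 6.26 FPKM in MuGDH64 and 4.12, 5.69 and 4.94 FPKM in GDH64. Nitab4.5_0002886g0090 had 8.7, 6.62 and 6.75 FPKM in MuGDH64 and 5.63, 5.21 and 4.22 FPKM in GDH64. In these last 2 models every MuGDH64 library lay above every GDH64 library, and the adjusted p was 0.0535 and 0.0702 as deposited and 0.0139 and 0.0169 after quantile normalization. In another 2, Nitab4.5_0000140g0140 and Nitab4.5_0009089g0020, every MuGDH64 library lay below, with adjusted p of 0.247 and 0.113. Without overlap 33.3% of the 6 synthases were thus higher and 33.3% lower, against 5.68% and 31.8% of all tested genes. The lower share therefore lies near that of all tested genes.

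The later mevalonate enzymes, which phosphorylate mevalonate and decarboxylate the product to isopentenyl diphosphate, gave no call in any of their 8 models. At the shares of all tested genes, 2.2% higher and 9.74% lower, few calls would fall in a group of this size. The mevalonate kinase Nitab4.5_0005388g0060 had 14.78, 12.66 and 11.57 FPKM in MuGDH64 and 12.54, 15.37 and 15.35 FPKM in GDH64. The phosphomevalonate kinase model Nitab4.5_0002429g0030, whose description also names a diphthamide synthesis protein, had 13.27, 11.37 and 12.26 FPKM in MuGDH64 and 13.53, 13.11 and 11.88 FPKM in GDH64. The diphosphomevalonate decarboxylase Nitab4.5_0003927g0020 had 10.88, 9.66 and 7.65 FPKM in MuGDH64 and 8.7, 9.87 and 10.3 FPKM in GDH64. The lines overlapped in each of the 8 models, while 5.68% of all tested genes were higher and 31.8% lower without overlap. The 3 models named here had adjusted p between 0.478 and 0.862. Their 95% intervals of the relative log2 change were -0.26 to 0.33, -0.13 to 0.36 and -0.18 to 0.46, so differences of that size cannot be told from no change with 3 libraries per line.

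The plastid MEP pathway enzymes among the members, 10 gene models of 4 enzymes, gave no call in either direction as deposited. Cyclodiphosphate synthase was the most abundant, and Nitab4.5_0003015g0100 had 79.61, 75.71 and 70.15 FPKM in MuGDH64 and 72.21, 69.89 and 69.8 FPKM in GDH64. It had a relative log2 change of 0.26 and an adjusted p of 0.515, which became 0.0384 with median-centred libraries. The cytidylyl transferase Nitab4.5_0001085g0130 had 36.08, 35.82 and 28.06 FPKM in MuGDH64 and 37.55, 39.07 and 37.95 FPKM in GDH64 (adjusted p = 0.263). The hydroxymethylbutenyl diphosphate synthase Nitab4.5_0000650g0220 had 28.47, 26.92 and 24.51 FPKM in MuGDH64 and 29.27, 31.4 and 25.93 FPKM in GDH64 (adjusted p = 0.506). All 3 MuGDH64 values of the cytidylyl transferase lay below those of GDH64, and the synthase values overlapped.

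The reductoisomerase, which commits deoxyxylulose phosphate to the pathway, was expressed from a pair of gene models whose balance differed between the lines. Nitab4.5_0009783g0020 had 24.28, 23.83 and 20.69 FPKM in MuGDH64 and 24.42, 23.84 and 21.82 FPKM in GDH64. Nitab4.5_0007719g0010 had 15.76, 15.81 and 14.59 FPKM in MuGDH64 and 20.04, 20.06 and 18.95 FPKM in GDH64, without overlap, and missed the threshold (adjusted p = 0.0527). Its share of the reductoisomerase FPKM was 39.4%, 39.9% and 41.4% in MuGDH64 and 45.1%, 45.7% and 46.5% in GDH64. Enzymes of the pathway that the description rule does not reach were looked up after the descriptions had been read. Of 5 deoxyxylulose phosphate synthases, the entry step, 1 was lower as deposited: Nitab4.5_0003546g0010 had 5.4, 4.28 and 5.26 FPKM in MuGDH64 and 8.35, 8.5 and 7.84 FPKM in GDH64 (adjusted p = 0.0145, and not past the threshold after quantile normalization). Of 2 diphosphocytidyl methylerythritol kinases and 2 LytB proteins, the last step, 0 passed. The shares to set beside these counts are 2.2% higher and 9.74% lower over all tested genes.

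**Figure D3:**
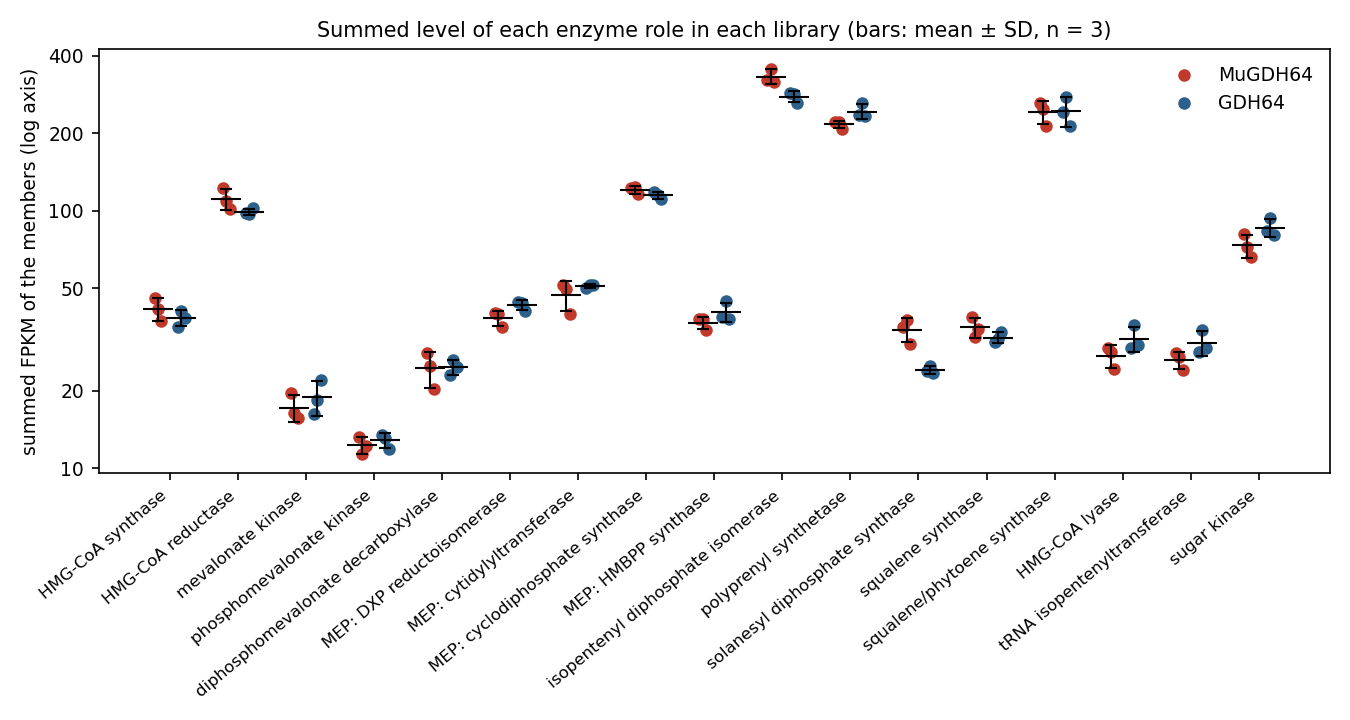
Summed FPKM of the members of each enzyme role in each library on a log axis, with the mean ± SD (n = 3 per line). The lines part without overlap for isopentenyl diphosphate isomerase (316.09 to 357.17 in MuGDH64, 262.56 to 286.9 in GDH64) and solanesyl diphosphate synthase (30.54 to 37.81 in MuGDH64, 23.52 to 25.05 in GDH64), where MuGDH64 is higher. MuGDH64 is lower without overlap for the reductoisomerases, hydroxymethylbutenyl diphosphate synthases, other polyprenyl synthetases, HMG-CoA lyases and tRNA isopentenyltransferases, and the remaining roles overlap. Sums are as deposited, where 31.8% of all tested genes were lower without overlap and 5.68% higher. Some gaps are very small, with nearest values of 38.0 and 38.03 for the hydroxymethylbutenyl diphosphate synthases and 29.37 and 29.45 for the lyases (MuGDH64 and GDH64).

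Isopentenyl diphosphate isomerase balances the isomeric units that every prenyl chain starts from. In each of its 4 expressed models every MuGDH64 library lay above every GDH64 library, and 2 of the models passed. Of all tested genes, 5.68% were higher without overlap and 2.2% passed as higher. Nitab4.5_0003099g0070 had 17.93, 14.67 and 14.88 FPKM in MuGDH64 and 10.66, 10.84 and 11.47 FPKM in GDH64. Nitab4.5_0000971g0070 had 11.92, 8.94 and 9.09 FPKM in MuGDH64 and 5.98, 6.13 and 3.77 FPKM in GDH64. The lowest MuGDH64 value was above the highest GDH64 value in both, with relative log2 changes of 0.66 (95% interval 0.40 to 0.92, adjusted p = 0.0277) and 0.99 (0.58 to 1.41, adjusted p = 0.0245). The abundant Nitab4.5_0000083g0120 had 236.35, 268.33 and 233.68 FPKM in MuGDH64 and 216.11, 211.73 and 194.01 FPKM in GDH64. It did not pass as deposited (relative log2 change 0.42, adjusted p = 0.111) and passed after quantile normalization (0.0442) and median-centring (0.0154). Nitab4.5_0001435g0050 had 57.6, 65.23 and 58.44 FPKM in MuGDH64 and 54.15, 56.04 and 53.31 FPKM in GDH64 (adjusted p = 0.299). It was also without overlap, and passed with median-centred libraries (0.0338).

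The summed isomerase level was 323.8, 357.17 and 316.09 FPKM in MuGDH64 and 286.9, 284.74 and 262.56 FPKM in GDH64. Most of it came from Nitab4.5_0000083g0120, the most abundant of all members. The calls for the less abundant models were close to the threshold, and their size changed little with a library left out. Nitab4.5_0003099g0070 missed the threshold without GDH64 library 1 (adjusted p = 0.0932) or 2 (0.073) and without MuGDH64 library 1 (0.0784), 2 (0.057) or 3 (0.0542), while its relative log2 change stayed between 0.60 and 0.72. Nitab4.5_0000971g0070 missed it without MuGDH64 library 1 (0.0688) or 3 (0.06) and without the filter on low values (0.0642), with relative log2 changes between 0.83 and 1.08 over the libraries left out.

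Polyprenyl synthetases, the family that includes farnesyl, geranylgeranyl and solanesyl diphosphate synthases, gave calls in both directions as deposited. Of 15 models 3 were higher, among them the model kept by the filter through MuGDH64 alone, and 2 were lower (13.3%). Over all tested genes 2.2% were higher and 9.74% lower, so the lower share of the family lies near that of all tested genes. The lower models were among the most abundant. Nitab4.5_0001922g0120, the most abundant, had 60.14, 62.97 and 59.36 FPKM in MuGDH64 and 80.29, 87.53 and 80.31 FPKM in GDH64. Nitab4.5_0000110g0240 had 27.21, 29.19 and 25.97 FPKM in MuGDH64 and 37.82, 38.91 and 34.33 FPKM in GDH64. No MuGDH64 library reached a GDH64 value in either model, with relative log2 changes of -0.26 (95% interval -0.45 to -0.07, adjusted p = 0.0152) and -0.24 (-0.46 to -0.02, adjusted p = 0.0277). With median-centred libraries neither passed (adjusted p = 0.0634 and 0.0998), and both remained past the threshold after quantile normalization (0.0359 and 0.0433). Nitab4.5_0001922g0120 also missed the threshold without GDH64 library 1 (0.0533). Nitab4.5_0000110g0240 missed it without GDH64 library 1 (0.1) or 2 (0.0825) and without MuGDH64 library 1 (0.0681), 2 (0.0587) or 3 (0.0725).

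Among the higher models, Nitab4.5_0003328g0080 had 12.27, 11.43 and 10.67 FPKM in MuGDH64 and 5.96, 6.78 and 6.56 FPKM in GDH64. Its relative log2 change was 0.92 (95% interval 0.67 to 1.17, adjusted p = 0.00549), and it passed in all 14 alternatives. Nitab4.5_0004294g0030 had 2.68, 1.88 and 2.27 FPKM in MuGDH64 and 0.92, 0.87 and 0.73 FPKM in GDH64 (relative log2 change 1.00, adjusted p = 0.0128). It fell below the filter whenever a MuGDH64 library was left out, and with the filter of 5 FPKM. Its passing in the other 10 alternatives therefore says nothing of its stability. This model was kept by the filter through its MuGDH64 libraries alone, so a difference in that direction was a condition of its being tested. Just outside the filter lay the polyprenyl synthetase Nitab4.5_0003495g0010, with 0.8, 0.68 and 0.4 FPKM in MuGDH64 and 1.37, 1.44 and 0.22 FPKM in GDH64.

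The solanesyl diphosphate synthases, a type of enzyme that makes the long chain of plastoquinone, were both higher in every MuGDH64 library. Of all tested genes, 5.68% were higher without overlap. Nitab4.5_0001140g0030 had 24.26, 24.76 and 21.4 FPKM in MuGDH64 and 15.63, 16.59 and 16.12 FPKM in GDH64. Nitab4.5_0007036g0010 had 11.22, 13.05 and 9.14 FPKM in MuGDH64 and 8.25, 8.46 and 7.4 FPKM in GDH64. Nitab4.5_0001140g0030 passed, with a relative log2 change of 0.69 (95% interval 0.46 to 0.92, adjusted p = 0.0149), and missed the threshold without MuGDH64 library 2 (0.061) or GDH64 library 1 (0.0608). Nitab4.5_0007036g0010 had a relative log2 change of 0.59 and an adjusted p of 0.0843 as deposited, and of 0.0142 after quantile normalization. Of the remaining polyprenyl synthetases, Nitab4.5_0005478g0020 had 12.17, 9.77 and 9.68 FPKM in MuGDH64 and 6.65, 8.76 and 7.25 FPKM in GDH64 (adjusted p = 0.0751), and Nitab4.5_0002216g0020 had 9.09, 9.73 and 8.13 FPKM in MuGDH64 and 6.02, 7.15 and 7.82 FPKM in GDH64 (adjusted p = 0.128). Both were without overlap and passed after quantile normalization (0.0135 and 0.0342).

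The summed level of all 15 polyprenyl synthetases overlapped between the lines, at 256.62, 258.87 and 238.44 FPKM in MuGDH64 and 259.17, 286.42 and 256.49 FPKM in GDH64. The share held by Nitab4.5_0001922g0120 was 23.4%, 24.3% and 24.9% in MuGDH64 and 30.98%, 30.6% and 31.3% in GDH64. That of Nitab4.5_0001140g0030 was 9.45%, 9.57% and 8.98% in MuGDH64 and 6.03%, 5.79% and 6.29% in GDH64. Domain names do not say which chain length a model makes, apart from the solanesyl entries.

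**Figure D4:**
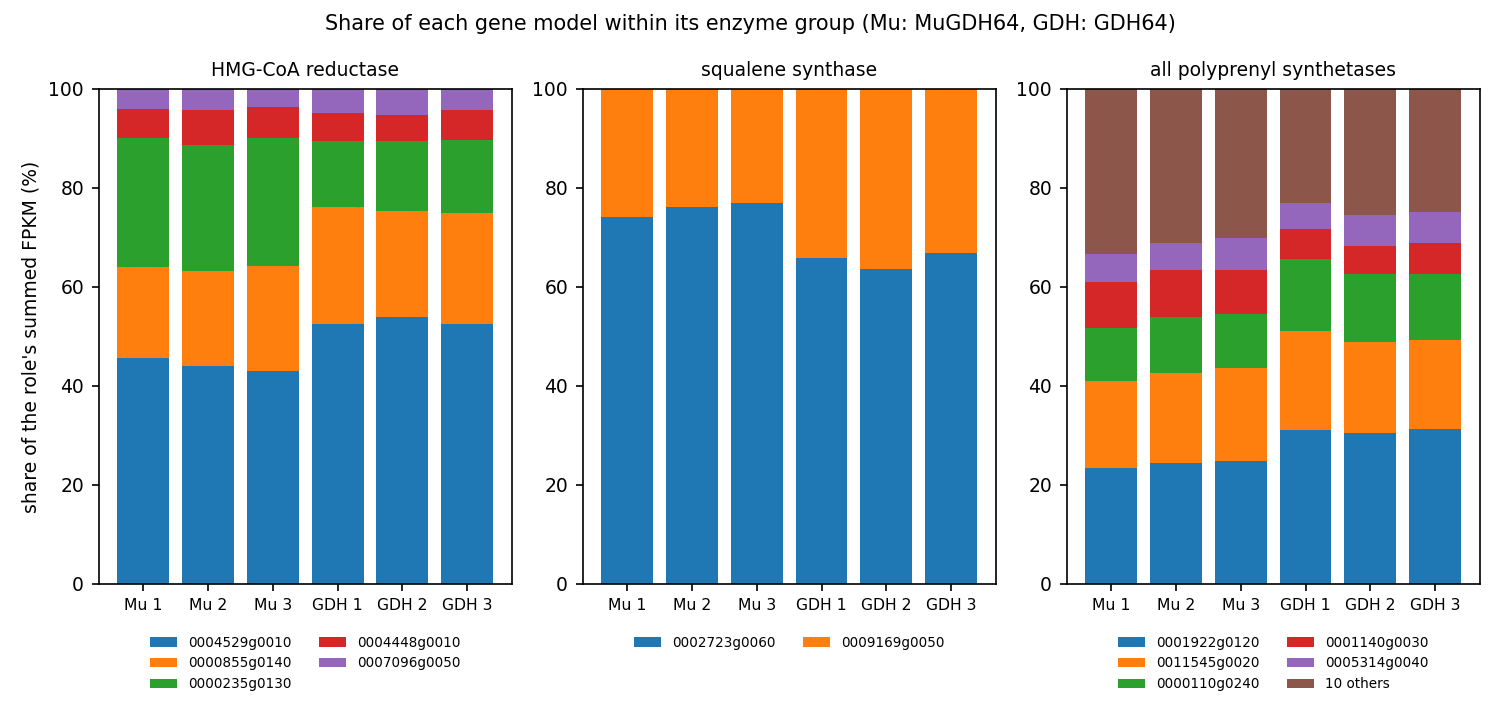
Percentage of the summed FPKM of an enzyme group held by each gene model, in each MuGDH64 (Mu) and GDH64 (GDH) library, for HMG-CoA reductase, squalene synthase and all polyprenyl synthetases, with the less abundant 10 of the last group joined. The reductase Nitab4.5_0000235g0130 widens to at least 25.3% in MuGDH64, against at most 14.8% in GDH64, and the synthetase Nitab4.5_0001922g0120 narrows to at most 24.9%, against at least 30.6%.

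Squalene and phytoene synthases join prenyl diphosphates head to head at the entry to sterols and carotenoids. Their 7 expressed models gave no call as deposited. At the shares of all tested genes, 2.2% higher and 9.74% lower, few calls would fall in a group of this size. Among the 7 models are a pair of squalene synthases, whose descriptions name farnesyl-diphosphate farnesyltransferase. Nitab4.5_0002723g0060 had 28.67, 24.61 and 26.74 FPKM in MuGDH64 and 20.31, 20.18 and 22.69 FPKM in GDH64. Nitab4.5_0009169g0050 had 10.06, 7.71 and 8.01 FPKM in MuGDH64 and 10.55, 11.58 and 11.21 FPKM in GDH64. The first named lay above GDH64 in every MuGDH64 library (adjusted p = 0.0718, and 0.0329 after quantile normalization) and the second lay below (0.102, and 0.373). Within the squalene synthase FPKM, Nitab4.5_0002723g0060 held 74.03%, 76.1% and 76.95% in MuGDH64 and 65.8%, 63.5% and 66.9% in GDH64. The other 5 models, among them any phytoene synthases, had relative log2 changes between -0.04 and 0.30. The most abundant of them, Nitab4.5_0000091g0360, had 119.63, 116.16 and 96.42 FPKM in MuGDH64 and 101.76, 120.33 and 85.24 FPKM in GDH64 (adjusted p = 0.579), with the lines overlapping.

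Families next to these enzymes were counted from description lists, and the shares over all tested genes to set beside them are 2.2% higher and 9.74% lower as deposited, and 4.43% and 5.17% after quantile normalization. Of 4 squalene epoxidases, which follow squalene synthase in sterol synthesis, 1 was higher and 0 lower. This model, Nitab4.5_0000036g0190, had 14.64, 15.18 and 14.74 FPKM in MuGDH64 and 8.2, 9.34 and 9.45 FPKM in GDH64 (relative log2 change 0.84, adjusted p = 0.00658), and passed after quantile normalization as well. The other 3 did not pass, and the summed epoxidase level was 38.63, 36.04 and 36.89 FPKM in MuGDH64 and 33.83, 42.02 and 34.88 FPKM in GDH64. Thiolase-fold proteins, which include the acetoacetyl-CoA thiolases upstream of the mevalonate pathway and also ketoacyl and polyketide synthases, had 5 of 56 higher and 12 lower (8.93% and 21.4%), and 10 higher and 8 lower after quantile normalization. Of the 56, 6 are the HMG-CoA synthases above. Proteins with a terpene synthase domain, which use the prenyl diphosphates, had 9 of 37 higher and 6 lower (24.3% and 16.2%), and 10 and 4 after quantile normalization, with a median 0.22 above the median gene. Carotenoid enzymes had 0 of 26 higher and 2 lower (7.69%), UbiA prenyltransferases 0 and 0 of 10, geranylgeranyl reductases 0 and 0 of 2, and protein prenyltransferases with squalene cyclases 0 of 19 higher and 2 lower (10.5%). The lower shares of the carotenoid and protein prenyltransferase lists lie near that of all tested genes. After quantile normalization 1 carotenoid enzyme was higher and 0 lower, and 1 geranylgeranyl reductase was higher.

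**Figure D5:**
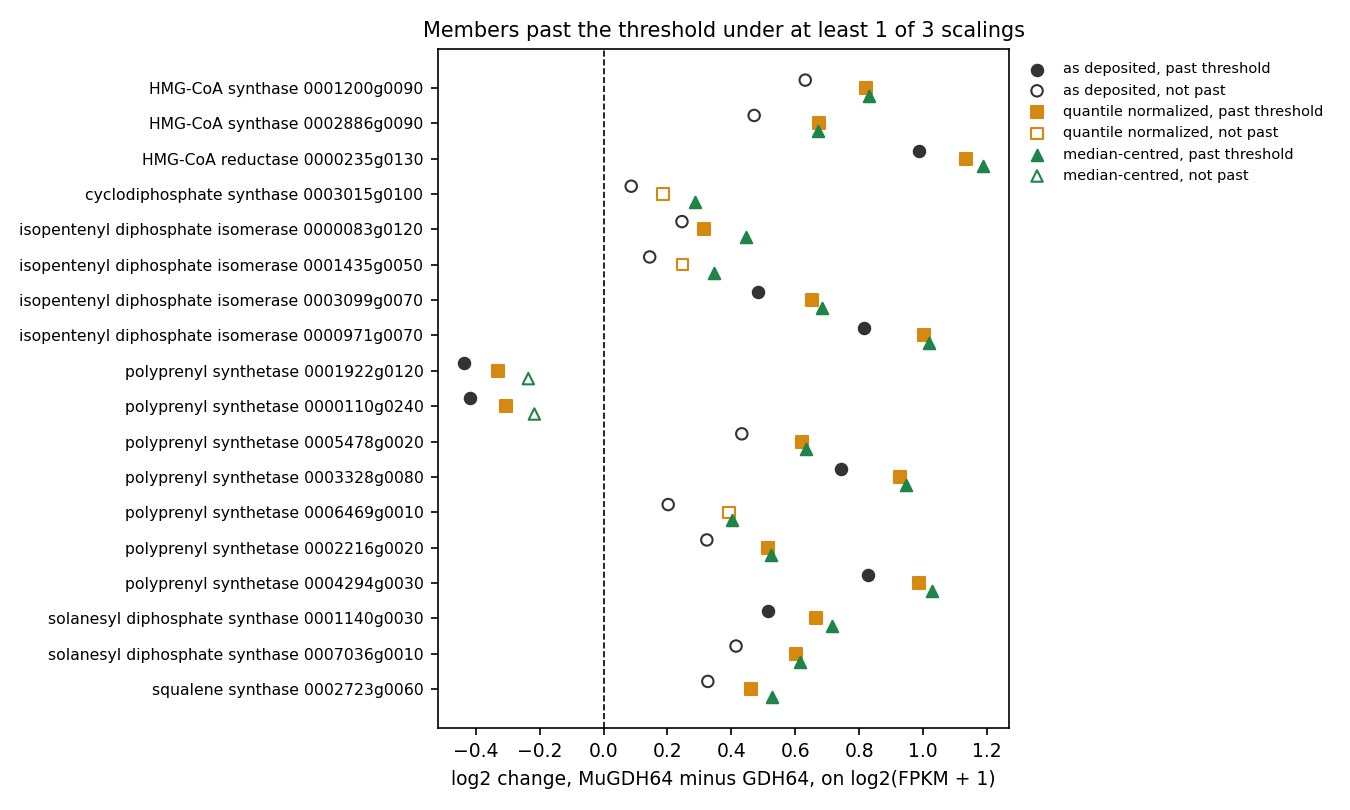
Log2 change of the members past the threshold under at least 1 of 3 scalings, MuGDH64 minus GDH64 on log2(FPKM + 1), not relative to the median gene. Filled symbols are past the threshold and open symbols are not. Every member keeps its direction under the 3 scalings, 6 higher members pass in each of them, and the lower pair does not pass with median-centred libraries.

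The tobacco genome combines those of separate ancestral species, and how reads that fit several similar copies were assigned is not stated. Levels of paired models such as the reductases, synthetases and squalene synthases above, and the balance within an enzyme group, are uncertain to that extent.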

How the data were processed

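RNA sequencing libraries of leaf were made with a TruSeq kit and read on an Illumina NovaSeq X, per the labels' protocols. The submitters' processing notes name TopHat2 and Cufflinks, without versions or settings, while neither genome build nor annotation is stated. The deposited table gives 1 value per gene model and library, and these values were taken as FPKM by inference from the authors' named tools, since the header names no unit. They are rounded to 2 decimals and did not yield whole reads, so depth and counting error are unknown. The authors' mean columns were not used.

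Genes reaching 1 FPKM in 3 or more libraries were tested on log2(FPKM + 1) with limma 3.58.1 in R 4.3.3 (mean-variance trend, line as the only term, two-sided, Benjamini-Hochberg over 32340 genes, threshold 0.05). This scale understates changes of low genes. The procedure was tested on simulated data. The p values measure the spread between 3 libraries per line, which may be partly technical. The alternatives were quantile normalization, median-centring, equal sums, no trend, no filter, a filter of 5 FPKM, a pseudocount of 0.1, leaving out each library, and a block for the library number. Shares and sums are descriptions without a test.

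Members, lists and alternatives were chosen with earlier results of these data known. Every member past the threshold, the most abundant of each role and all HMG-CoA reductases are given by library. Other members were named for lines that do not overlap or for lying at the filter, after their values were seen. Roles within the mevalonate group and the additional MEP enzymes were set after the descriptions were read. No table used here links the gene models to sequences or symbols. Plots were made with Python 3.11.15 and matplotlib 3.10.9.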

Additional observations from a re-analysis of the deposited data

How the results depend on the processing

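The count of higher members, 6 as deposited, was 13 after quantile normalization, 16 with median-centred libraries, 12 with equal sums and 3 to 6 with 1 library left out; all 6 were among the calls under each of these 3 scalings. The count of lower members, 2 as deposited, was 0 with median-centred libraries and 0 to 2 with 1 library left out. Over all tested genes the higher count of 712 became 1433 (quantile), 1940 (median-centred), 1302 (equal sums) and 348 to 650 (1 library left out). The lower count of 3151 became 1671 (quantile), 1384 (median-centred), 1784 (no filter) and 1345 to 2491 (1 library left out). The cause was not tested. Direction relative to the median gene was followed for the members past the threshold, the most abundant of each role and the HMG-CoA reductases. Among these it turned only in models near 0: the mevalonate kinase Nitab4.5_0005388g0060 without the filter (-0.0267) and with 1 library left out (-0.0499 to 0.107), the cytidylyl transferase Nitab4.5_0001085g0130 with a pseudocount of 0.1 (0.0022) and with 1 library left out (-0.0634 to 0.0445), the HMG-CoA lyase Nitab4.5_0001450g0050 with 1 library left out (-0.1119 to 0.0506), and the sugar kinase Nitab4.5_0005111g0010 with equal sums (0.0073), a pseudocount of 0.1 (0.0166) and 1 library left out (-0.0813 to 0.0444). Other members named above were not followed in this way. With the library number as a replicate block 6 members were higher and 2 lower, and 712 and 3279 genes in all. Deviations of same-numbered libraries from their line means had correlations of 0.0148, 0.0131 and 0.0511. Those of the other pairs ran from -0.0459 to 0.0281. These values are small, and no label says what the numbers stand for, so pairing was not settled. Precision is limited by 3 libraries per line and an unknown depth.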
